A study of Mus musculus with 8 samples.

Results

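The genes described are those of the nuclear pore, of transport through it and of the nuclear envelope. They were picked by gene symbol alone, with a fixed pattern of names for nucleoporins, importins, exportins, transportins, genes of the Ran cycle, mRNA export factors, lamins and inner membrane proteins. The pattern found 46 of the 3160 genes in the deposited table, and all 46 had reads in all 8 libraries. No expression value was used to choose them, although the group was proposed with earlier results of these data known.

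RNA was sequenced at 2 stages of E14Tg2A, a mouse embryonic stem (ES) cell line of strain 129/Ola. ES cells (0 days in vitro, DIV) grew on gelatin in fetal calf serum with leukaemia inhibitory factor, the cytokine that holds them undifferentiated. Epiblast-like aggregates (ELA, 2 DIV) formed from the same line as floating clusters in a defined medium with N2 and B27 supplements, without serum or that cytokine, so stage, medium and growth in suspension cannot be told apart. All cells were treated with cycloheximide, which stalls ribosomes on mRNA, before lysis. A small part of each lysate gave total RNA (input), and an antibody against the endogenous ribosomal protein Rpl10a drew ribosomes with their mRNA from the rest (Rpl10a-IP). Input and Rpl10a-IP of both stages make 4 groups of 2 replicates. All came from 1 cell line, and nothing in the labels says that the replicates were separate cultures, so p-values measure the spread between these libraries, which may be technical.

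Reads over the 3160 genes ranged from 159587 in ELA input replicate 1 to 23483388 in ELA Rpl10a-IP replicate 1, a 147-fold range. A member had a median of 48.5 reads in ELA input replicate 1 and 129 in replicate 2, against 1298 to 8920 in the other 6 libraries. The fewest reads of a member in ELA input replicate 1 were the 10 of Thoc7 (37 in replicate 2). In replicate 2 the fewest were the 31 of Nup43 (15 in replicate 1). Every comparison that uses ELA input is therefore the least precise, and 3 comparisons share those libraries, namely enrichment in ELA, total RNA between stages and the change in enrichment, so that an error in ELA input moves all of them. The shallowest of these libraries also had low complexity, many duplicate reads and a weak correlation with the others per the study, which left it out. Without it, 26 members were enriched and 11 depleted in ELA, total RNA rose in 8 and fell in 26, and the change in enrichment was higher in 19 and lower in 9, against 26 and 11, 6 and 24, and 19 and 9 with it. All values are normalised counts relative to the other genes of the table, and bulk libraries cannot tell fewer cells of a kind from less RNA per cell. In the table, the SD of the 2 ratios of Rpl10a-IP to input was at most 0.1995 (ES) and 0.1998 (ELA) of their mean for every gene, so genes with a wide spread are not among them and p-values are too small.

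Nuclear pores are the channels that cross the nuclear envelope. Stacked inner and outer rings of scaffold nucleoporins hold a central channel lined with flexible repeats, with a basket on the nuclear face and filaments on the cytoplasmic face. Importins and exportins carry proteins and RNAs through the channel, and the small GTPase Ran, bound to GTP in the nucleus and to GDP in the cytoplasm, gives the direction. Beneath the inner nuclear membrane the lamina and its membrane partners anchor chromatin.

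Because ribosomes were recovered with their mRNA, the sequence around the annotated start codon is shown for 10 of 12 members, which are the 6 with the largest called rise and the 6 with the largest called fall in ribosome enrichment. Each line runs 5′ to 3′ over 20 bases of a GENCODE vM1 transcript (build NCBIM37, transcript strand). Capitals mark the base at position -3, the start codon and the base at position +4, where A of ATG is +1.
Nup98: aacggagcaTtcATGCctaa
Xpo5: ccggctctaGccATGGagat
Xpo4: tgaagagagAccATGAtggc
Nup107: accgctgaaGccATGGacag
Nup93: tctgcatctCtaATGGatac
Ranbp1: cgccgcgccCccATGGcggc
Alyref: tccgcgcccGccATGGccga
Pom121: cgcggagccGcgATGTctcc
Nupl1: ccaagggccGccATGGccac
Tmpo: gagggggacGagATGCcgga
The first 5 belong to members whose enrichment rose and the other 5 to members whose enrichment fell. Nup98, Nup93 and Ranbp1 had no purine (A or G) at -3, and the other 7 did. The Nup98 transcript is shorter than the full precursor mRNA, so the start marked for it may not be that of the precursor. Over the 42 members with an annotated start and enough sequence before it, 38 (90.5%) had a purine at -3 and 26 (61.9%) had both a purine there and G at +4. The shares over 2997 genes of the table were 87.8% and 47.2%.

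Ribosome enrichment, the level in Rpl10a-IP over the level in input, was higher in more members than lower in both stages. Its SD across members went from 0.24 in ES to 0.78 in ELA on the log2 scale, and across all genes from 0.30 to 0.81. In ES, enrichment was higher in 17 members and lower in 5, where 19.5% and 20.0% of all 3160 genes passed in those directions (limma, Benjamini-Hochberg adjusted p under 0.05, as for every call). The ES counts depend on the libraries. They were 9 and 3 with all 8 libraries, 9 and 4 without ES Rpl10a-IP replicate 2, 11 and 1 without ES input replicate 1, and 14 and 1 without ES Rpl10a-IP replicate 1. In ELA it was higher in 26 and lower in 11, against 36.8% and 37.2% of all genes. The median log2 enrichment of the 46 was 0.15 in ES and 0.52 in ELA, where the median of all genes was -0.02 and -0.01. The 16 members enriched in both stages (13.4% of all genes were) came from the rings, the exportins, the importins and the basket, with Sun1, and the 5 depleted in both (14.1% of all genes) were Lmnb1, Nupl1, Pom121, Ranbp1 and Rcc1. Of these 5, Lmnb1 (-0.17), Ranbp1 (-0.13) and Rcc1 (-0.14) no longer passed in ES after the correction for transcript length described next. No member passed in opposite directions in the 2 stages, as 3.96% of all genes did. The change in enrichment, tested with all 8 libraries as the interaction of stage and fraction, was higher in ELA for 19 members and lower for 9, where 28.4% and 27.7% of all genes passed. The 9 falls were 4 without ES Rpl10a-IP replicate 2 and 5 without ES input replicate 2. The change ran from -0.90 for Ranbp1 to 1.64 for Nup205 on the log2 scale, with a median of 0.16 (all genes 0.01). Above 1 on this scale were 6 rises, those of Nup205, Nup98, Xpo5, Xpo4, Nup107 and Nup93 (6.33% of all genes), and no fall was below -1 (9.05% of all genes). Counts by role rest on 1 to 7 genes each and are read against these shares of all genes. Since longer transcripts rose more, as shown further on, the account of each role also gives the calls between stages that changed once each library was corrected for transcript length and GC content by loess, and the values so corrected are called corrected. Calls of enrichment within a stage that changed are given with the correction itself.

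**Figure D1:**
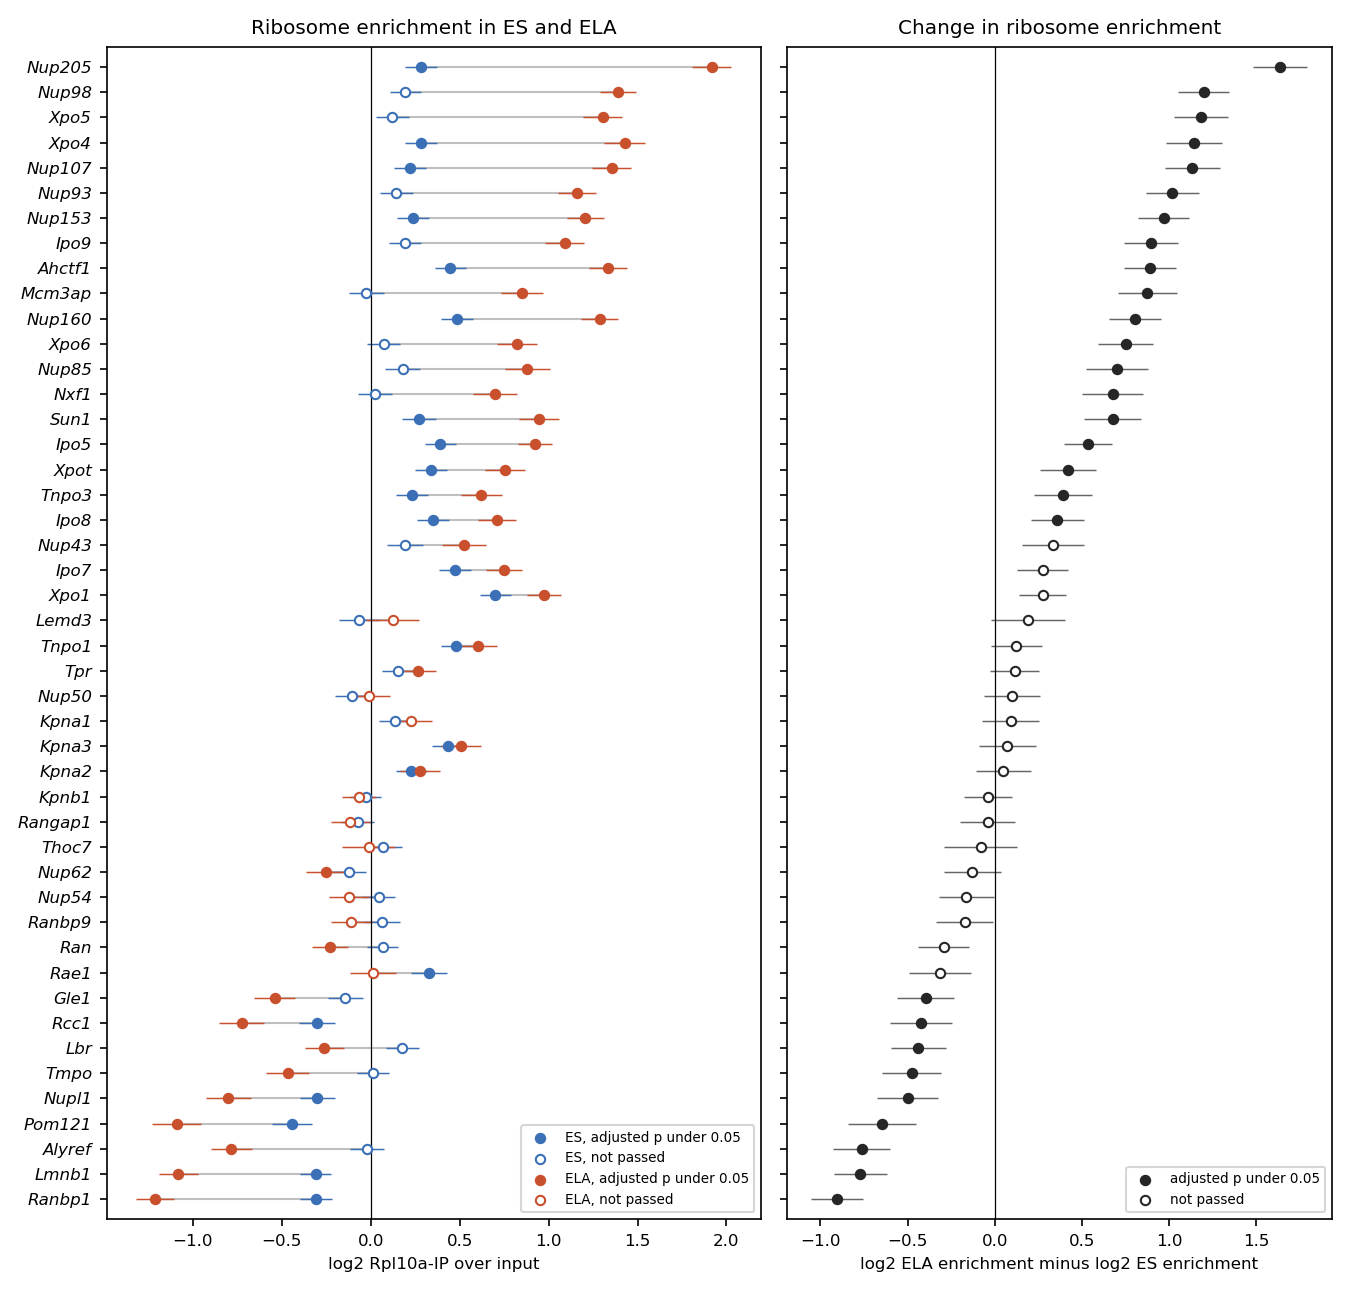
The left panel gives log2 enrichment (Rpl10a-IP over input) of the 46 members in ES (blue) and ELA (red), and the right panel the ELA value minus the ES value in the same order. Points are limma estimates with bars of 1 standard error, filled where the adjusted p was under 0.05; Nup205 at the top rose by 1.64 and Ranbp1 at the bottom fell by 0.90, and the ELA points span a wider range than the ES points.

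The scaffold rings held the largest rise. Both inner ring members and all 5 outer ring members, among them the chromatin anchor Ahctf1, were enriched in ELA, and 6 of these 7 rose in enrichment. Nup205 (chr6:35177616-35247599, GRCm38.p6 as for all coordinates), a large inner ring subunit, counted 2047 and 2195 in ES input, 2520.1 and 2637 in ES Rpl10a-IP, 2039 and 1622 in ELA input and 7056 and 6698 in ELA Rpl10a-IP. The ELA Rpl10a-IP libraries stood above the other 6, which lay within 1622 and 2637. Its log2 enrichment was 0.28 ± 0.09 (SE) in ES and 1.92 ± 0.11 in ELA, and the change of 1.64 ± 0.16, or 3.11-fold, had an adjusted p of 2.7e-10. Ribosome-bound Nup205 RNA rose by 1.41 ± 0.09 while its total RNA gave -0.22 ± 0.11 (adjusted p = 0.072). Nup93 (chr8:94214564-94328100), the inner ring linker, counted 1236 and 1219.6 in ES input, 1301 and 1412 in ES Rpl10a-IP, 788 and 816 in ELA input and 1791 and 1798 in ELA Rpl10a-IP. Its total RNA fell by 1.53-fold and its ribosome-bound RNA rose by 1.32-fold, so the groups moved in opposite directions with no overlap, and enrichment rose by 1.02 ± 0.15 (adjusted p = 1.2e-06). In the corrected values Nup205 was called lower in total RNA (-0.45), and the other calls of both genes stayed.

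In the outer ring, Nup107 (chr10:117750621-117792736), a core subunit of the Y-shaped complex, counted 1521 and 1708 in ES input, 1812 and 1950.2 in ES Rpl10a-IP, 1414 and 1219 in ELA input and 3231 and 3494 in ELA Rpl10a-IP. Total RNA passed as lower (-0.30 ± 0.11), bound RNA rose (0.84 ± 0.09), and enrichment rose by 1.13 ± 0.16 with an adjusted p of 2.6e-07. Nup160 (chr2:90677215-90739327), another Y complex subunit, counted 1822 and 1894 in ES input, 2512 and 2688 in ES Rpl10a-IP, 1958 and 1876 in ELA input and 4914 and 4450.0 in ELA Rpl10a-IP. Total RNA did not pass (0.04 ± 0.10), and the ELA Rpl10a-IP libraries stood above the other 6. Nup160 was the outer ring gene most enriched in ES, at 0.48 ± 0.09, and its enrichment rose by 0.80 ± 0.15. Ahctf1 (chr1:179744904-179804015), known as ELYS, which seeds pore assembly on chromatin, counted 3007 and 3532 in ES input, 4416 and 4474 in ES Rpl10a-IP, 3426 and 3021 in ELA input and 7790.3 and 8463 in ELA Rpl10a-IP. Bound RNA of Ahctf1 rose by 0.87 ± 0.09 with total RNA at -0.02 ± 0.11, and enrichment rose by 0.89 ± 0.15. Nup85 (chr11:115564432-115583924) differed from these, since both fractions fell. Its counts were 832 and 784 in ES input, 898 and 934 in ES Rpl10a-IP, 462 and 349.8 in ELA input and 783 and 702 in ELA Rpl10a-IP. The fall in total RNA, -1.0050 ± 0.13, was the deepest among members and exceeded the fall in bound RNA, -0.30 ± 0.10, and enrichment rose by 0.70 ± 0.18 (adjusted p = 0.0011), with 17 and 33 reads in ELA input. Nup43, a smaller Y complex subunit, fell in total RNA (-0.52 ± 0.13) and did not pass in bound RNA (-0.19 ± 0.10) or in the change in enrichment (0.33 ± 0.18). The corrected values turned most of this for Nup43, with no call in total RNA (0.0046) and called rises in bound RNA (0.92) and enrichment (0.92). Corrected bound RNA no longer passed for Ahctf1 (0.06) and Nup85 (0.06), so that Nup85 fell in total RNA alone. Its corrected value there was -0.70, and Kpna1 (-1.09) and Ipo7 (-0.85) then fell deeper. Total RNA was called lower for Ahctf1 (-0.44) and no longer for Nup107 (-0.11), and the rise of Ahctf1 in enrichment shrank to 0.50.

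**Figure D2:**
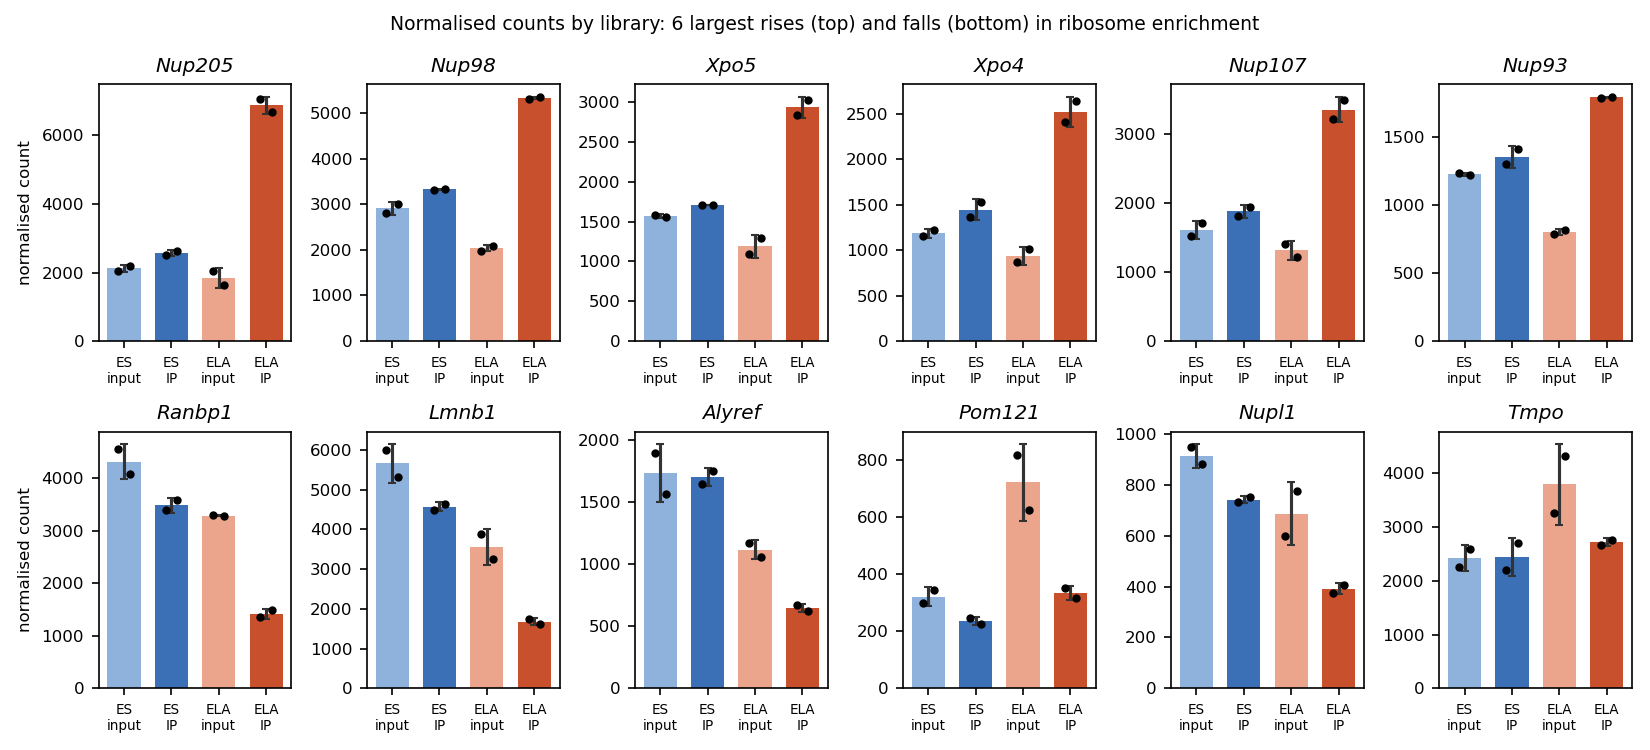
Normalised counts (vertical axis, from 0 in each panel) of the 6 members with the largest called rise in ribosome enrichment (top) and the 6 with the largest called fall (bottom). Bars are means of 2 libraries with SD, points the libraries; in the top row the ELA Rpl10a-IP bar is the tallest in each panel, and Nup205 reaches 7056 and 6698 there.

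Among the 4 nucleoporins of the central channel, Nup98 moved against the other 3 in bound RNA, while all 4 had negative values in total RNA. Nup98 (chr7:102119400-102210166), which carries the repeats that gate the channel and is made with Nup96 from 1 precursor, counted 2804 and 3008 in ES input, 3318 and 3329.5 in ES Rpl10a-IP, 1985 and 2078 in ELA input and 5311 and 5347 in ELA Rpl10a-IP. The total fell by 0.52 ± 0.10 and the bound RNA rose by 0.68 ± 0.09, with no overlap between stages in either fraction. Its enrichment in ELA, 1.39 ± 0.10, stood against 0.19 ± 0.09 in ES, and the change was 1.20 ± 0.14 (adjusted p = 2.1e-08). The other channel members, Nup54, Nup62 and Nupl1 (also called Nup58), form a trimer in the channel, and all 3 fell in bound RNA. Nup54 (chr5:92415540-92435259) counted 1401 and 1369 in ES input, 1391 and 1466 in ES Rpl10a-IP, 816 and 753 in ELA input and 682 and 762 in ELA Rpl10a-IP, near equal in the 2 fractions of each stage. It fell in both fractions (-0.82 ± 0.11 in total RNA and -0.99 ± 0.09 in bound RNA), and its change in enrichment did not pass (-0.16 ± 0.16). Nupl1 (chr14:60205284-60251479) counted 946 and 879.9 in ES input, 731 and 751 in ES Rpl10a-IP, 598 and 774 in ELA input and 375 and 406 in ELA Rpl10a-IP, lower in Rpl10a-IP than in input at both stages. Its enrichment fell by 0.50 ± 0.18 (adjusted p = 0.016), with 22 and 73 reads in ELA input. Nup62 gave -0.38 ± 0.09 for bound RNA, -0.25 ± 0.11 for total RNA, which did not pass, and -0.13 ± 0.16 for enrichment, which did not pass either. Corrected, Nupl1 no longer passed in total RNA (-0.21) or in the change in enrichment (-0.34), and the rise of Nup98 in bound RNA shrank to 0.24. The falls in bound RNA shrank as well, to -0.46 for Nup54, -0.55 for Nupl1 and -0.23 for Nup62, and the change of Nup54 in enrichment came to 0.12, not passed.

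On the nuclear face, the basket genes also differed from one another. Nup153, which tethers the basket, counted 2528 and 2533 in ELA input and 5705 and 5973 in ELA Rpl10a-IP, against 2853 and 3329 and 3709 and 3557 in ES. Its enrichment rose by 0.97 ± 0.15 (adjusted p = 1.3e-06), with total RNA lower and bound RNA higher. Tpr, the filament of the basket, and Nup50, a mobile basket protein that binds importin alpha, did not pass in total RNA, bound RNA or the change in enrichment, where their values were 0.11 ± 0.14 and 0.10 ± 0.16. On the cytoplasmic side, Gle1, which activates the helicase that releases exported mRNA, fell in both fractions and in enrichment (-0.40 ± 0.16). Rae1, an mRNA export factor bound to Nup98, fell in bound RNA (-0.44 ± 0.10), and its change in enrichment of -0.31 ± 0.18 did not pass. In the corrected values Tpr and Nup50 were called lower in total RNA (-0.33 and -0.24) and in bound RNA (-0.52 and -0.36). The fall of Rae1 in bound RNA did not pass (0.11), and the rise of Nup153 there shrank to 0.23.

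Pom121 (chr5:135376140-135404841), one of the nucleoporins that span the membrane, had the largest rise in total RNA among members and was depleted from ribosomes in both stages. It counted 297 and 345 in ES input, 245 and 226 in ES Rpl10a-IP, 816 and 625 in ELA input and 353 and 318 in ELA Rpl10a-IP. ELA input stood above all other libraries, which lay between 226 and 353, at 30 and 59 reads. Total RNA rose by 2.23-fold and bound RNA by 1.42-fold, so that enrichment went from -0.44 ± 0.11 to -1.09 ± 0.14, a change of -0.65 ± 0.19 (adjusted p = 0.0047). Without ES input replicate 1 this change was -0.54 and missed the threshold (adjusted p = 0.050). Corrected, bound RNA of Pom121 did not pass (-0.13), and its enrichment in ES came to -0.29. Its corrected change in enrichment was -0.91, the largest corrected fall among members.

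All 5 exportins were enriched in ELA (36.8% of all genes), 4 of them rose in enrichment (28.4%), 4 rose in bound RNA (41.1%), none rose in total RNA (34.5%), and 2 fell there (35.8%). Xpo5 (chr17:46202811-46243598), which exports precursors of microRNAs, counted 1587 and 1556 in ES input, 1708 and 1713 in ES Rpl10a-IP, 1088 and 1293 in ELA input and 2837 and 3027 in ELA Rpl10a-IP. Its total RNA fell by 0.41 ± 0.11 and its bound RNA rose by 0.78 ± 0.09, with a change in enrichment of 1.18 ± 0.15 (adjusted p = 1.1e-07). Xpo4 (chr14:57577521-57668232), whose known cargoes include the translation factor eIF5A, counted 1149.9 and 1218 in ES input, 1361 and 1525 in ES Rpl10a-IP, 870.0 and 1007 in ELA input and 2403 and 2638 in ELA Rpl10a-IP. Its log2 changes were -0.34 ± 0.11 in total RNA, 0.81 ± 0.09 in bound RNA and 1.14 ± 0.16 in enrichment, and all 3 passed. Xpo6, the exporter of actin with profilin, rose by 0.75 ± 0.16 in enrichment, and Xpot, the exporter of tRNA, by 0.42 ± 0.16. Xpo1 (chr11:23255909-23297597), the general exporter of proteins with leucine-rich export signals, counted 6499 and 6812 in ES input, 10858 and 10753 in ES Rpl10a-IP, 6715 and 7059.8 in ELA input and 13362 and 13684 in ELA Rpl10a-IP. It had the highest enrichment of all members in ES, 0.70 ± 0.09, and 0.97 ± 0.10 in ELA, and the difference of 0.27 ± 0.14 did not pass (adjusted p = 0.085). In the corrected values all 5 exportins were called lower in total RNA (37.2% of all genes), as Xpo1 (-0.49), Xpot (-0.47) and Xpo6 (-0.23) joined the other two. Bound RNA then rose in 3 and fell in Xpo1, from 0.32 ± 0.09 to -0.18, and in Xpot (-0.27). The corrected change in enrichment passed for Xpo1 (0.31) and not for Xpot (0.20), and the rises of Xpo6 shrank to 0.49 in enrichment and 0.26 in bound RNA.

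Of the 7 members of the importin beta family, 5 were enriched in ES and 6 in ELA, and 4 rose in enrichment between the stages. Ipo9 (chr1:135382312-135430499), an importer of histones, rose the most. It counted 1349 and 1243 in ES input, 1466 and 1495 in ES Rpl10a-IP, 1251 and 1452 in ELA input and 2808 and 2932 in ELA Rpl10a-IP, so that the ELA Rpl10a-IP libraries stood above the other 6, which lay within 1243 and 1495. The change in enrichment was 0.90 ± 0.15 (adjusted p = 9.8e-06). Ipo5, an importer of ribosomal proteins and histones, rose by 0.53 ± 0.14. Ipo8 (chr6:148770683-148832931), which counted 1349 and 1433 in ES input, 1771 and 1773 in ES Rpl10a-IP, 1822 and 1643 in ELA input and 2876 and 2779 in ELA Rpl10a-IP, rose in total RNA (0.32 ± 0.11), in bound RNA (0.67 ± 0.09) and by 0.36 ± 0.15 in enrichment. Tnpo3, the importer of splicing factors rich in serine and arginine, rose by 0.39 ± 0.17. Tnpo1 (chr13:98839019-98926384), the importer of RNA-binding proteins with the PY signal, counted 2441 and 2649 in ES input, 3486 and 3615 in ES Rpl10a-IP, 3208 and 3583 in ELA input and 5384 and 4932 in ELA Rpl10a-IP. Both fractions rose, by 0.41 ± 0.10 and 0.54 ± 0.09, and the change in enrichment did not pass (0.12 ± 0.15). Ipo7 (chr7:110018315-110056609) counted 4348 and 4732 in ES input, 6440.4 and 6160.4 in ES Rpl10a-IP, 2583 and 2936 in ELA input and 4773 and 4491 in ELA Rpl10a-IP. Both fractions fell (-0.72 ± 0.10 in total and -0.44 ± 0.09 in bound RNA), with enrichment in both stages (0.47 ± 0.09 and 0.75 ± 0.10). Kpnb1, importin beta itself, was the most counted member in ES. It fell in both fractions to a near equal degree (-0.45 ± 0.10 and -0.48 ± 0.09), and its enrichment was near 0 throughout. Corrected, both rises of Tnpo1 turned to called falls (-0.24 in total RNA and -0.31 in bound RNA). Ipo8 no longer passed in total RNA (0.11) or in enrichment (0.24), nor Tnpo3 in enrichment (0.30) or Ipo5 in bound RNA (0.10). The change in enrichment was called higher for Ipo7 (0.64) and lower for Kpnb1 (-0.32), and that of Ipo9 shrank to 0.51. The transcript used for Ipo7 holds the coding part only, and some hold little beyond it, as for Xpo5 (3615 of 3709 bases coding). The same goes for Nup205 (6204 of 6381) and Nup43 (1143 of 1286), so corrected values depend on the lengths annotated.

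Importin alpha genes, whose products link cargo to Kpnb1, showed no change in enrichment that passed: 0.09 ± 0.16 for Kpna1, 0.05 ± 0.16 for Kpna2 and 0.07 ± 0.16 for Kpna3. Levels did change. Kpna1 (chr16:35983288-36037136) counted 1284 and 1459 in ES input, 1428 and 1589 in ES Rpl10a-IP, 761 and 912 in ELA input and 992 and 961 in ELA Rpl10a-IP, lower in ELA in both fractions. Kpna2 fell likewise (-0.67 ± 0.11 in total RNA and -0.62 ± 0.09 in bound RNA). The corrected fall of Kpna2 in bound RNA came to 0.02 and did not pass. Kpna3 (chr14:61365186-61439947) counted 1419.7 and 1531 in ES input, 1959 and 2032 in ES Rpl10a-IP, 1468 and 1908 in ELA input and 2372 and 2389.7 in ELA Rpl10a-IP. Its bound RNA rose (0.25 ± 0.09), its total RNA did not pass (0.18 ± 0.11), and it was enriched in both ES (0.44 ± 0.09) and ELA (0.51 ± 0.11).

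All 4 Ran cycle genes fell in bound RNA, where 42.3% of all genes fell, and none rose in either fraction. Ranbp1 (chr16:18239979-18248694), which helps the GTPase-activating protein Rangap1 discharge Ran in the cytoplasm, counted 4549 and 4077 in ES input, 3383 and 3577 in ES Rpl10a-IP, 3289.7 and 3275 in ELA input and 1351 and 1484 in ELA Rpl10a-IP. Its bound RNA fell (-1.30 ± 0.09), as did its total RNA (-0.39 ± 0.10), with no overlap between stages. Enrichment fell from -0.31 ± 0.09 to -1.21 ± 0.10, and the change of -0.90 ± 0.15 was the largest fall among members (adjusted p = 4.3e-06). Ran itself (chr5:129020156-129024322) counted 5791 and 5458 in ES input, 5799.8 and 5981 in ES Rpl10a-IP, 4024 and 4452 in ELA input and 3809 and 3432 in ELA Rpl10a-IP. It fell in total RNA (-0.41 ± 0.10) and in bound RNA (-0.70 ± 0.09), and the change in enrichment of -0.29 ± 0.14 did not pass (adjusted p = 0.082). Rcc1 (chr4:132331919-132345750), the chromatin-bound factor that charges Ran with GTP, counted 708 and 685 in ES input, 540.4 and 591 in ES Rpl10a-IP, 653 and 519 in ELA input and 378 and 327 in ELA Rpl10a-IP. Its enrichment fell by 0.42 ± 0.18 (adjusted p = 0.044), with 24 and 49 reads in ELA input. Rangap1 fell by near equal amounts in both fractions (-0.47 ± 0.11 and -0.51 ± 0.09). In the corrected values Ranbp1, whose transcript has 1085 bases, did not pass in bound RNA (-0.09) and was called higher in total RNA (0.23). Its corrected change in enrichment was -0.32, and 7 members, led by Pom121, then had lower values. The falls of Ran and Rcc1 in bound RNA shrank to -0.25 and -0.40. Ran no longer passed in total RNA (-0.11), nor Rcc1 in enrichment (-0.37). Ranbp9 (chr13:43402673-43481283), which shares the name but belongs to a ubiquitin ligase complex, counted 518 and 555 in ES input, 567 and 556 in ES Rpl10a-IP, 761 and 774 in ELA input and 701 and 723 in ELA Rpl10a-IP. It rose by 0.52 ± 0.12 in total RNA and 0.34 ± 0.10 in bound RNA, with -0.17 ± 0.16 for enrichment, which did not pass.

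The 4 mRNA export factors had 2 rises and 1 fall in enrichment. Mcm3ap (chr10:76468902-76515859), the scaffold of the TREX-2 complex at the basket, counted 601 and 577 in ES input, 586 and 571 in ES Rpl10a-IP, 734 and 604 in ELA input and 1282 and 1126 in ELA Rpl10a-IP. The ELA Rpl10a-IP libraries stood above the other 6, which lay within 571 and 734, and enrichment rose by 0.88 ± 0.17 (adjusted p = 5.2e-05). Nxf1 (chr19:8757103-8770910), the general mRNA export receptor, counted 912 and 1012 in ES input, 923 and 1036 in ES Rpl10a-IP, 489 and 636 in ELA input and 917 and 898 in ELA Rpl10a-IP. Total RNA fell by 0.78 ± 0.12, bound RNA gave -0.11 ± 0.10 (not passed), and enrichment rose by 0.68 ± 0.17 (adjusted p = 0.0013) with 18 and 60 reads in ELA input. Alyref (chr11:120594504-120598399), the adaptor that hands mRNA to Nxf1, went the other way and counted 1898 and 1565 in ES input, 1648 and 1752 in ES Rpl10a-IP, 1169 and 1060.0 in ELA input and 671 and 622 in ELA Rpl10a-IP. Its total RNA fell (-0.63 ± 0.12), as did its bound RNA (-1.39 ± 0.09), and enrichment fell by 0.76 ± 0.16 (adjusted p = 1.8e-04). Thoc7, of the THO complex, fell in both fractions (-0.49 ± 0.15 and -0.57 ± 0.11), and its change in enrichment was -0.08 ± 0.21. Corrected, Thoc7 turned to a called rise in bound RNA (0.87) and in enrichment (0.96) with no call in total RNA (-0.09). Nxf1 was called higher in bound RNA (0.36), and the rises of Mcm3ap shrank to 0.42 in enrichment and 0.28 in bound RNA.

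At the lamina and inner membrane, 3 of 5 members fell in enrichment and Sun1 rose. Lmnb1 (chr18:56707813-56753424), lamin B1, counted 6007 and 5321 in ES input, 4485 and 4645 in ES Rpl10a-IP, 3888 and 3244 in ELA input and 1751 and 1610.1 in ELA Rpl10a-IP. The groups fell in steps without overlap, and bound RNA in ELA was the lowest. Lmnb1 had the deepest fall in bound RNA of all members, -1.44 ± 0.09 or 2.72-fold, against -0.67 ± 0.11 in total RNA. Its change in enrichment was -0.77 ± 0.15 (adjusted p = 6.7e-05). Tmpo (chr10:91147571-91181752), the lamina-associated polypeptide 2, counted 2250.5 and 2590.1 in ES input, 2194 and 2699 in ES Rpl10a-IP, 3263 and 4325 in ELA input and 2674 and 2767 in ELA Rpl10a-IP. Total RNA rose (0.64 ± 0.12) and bound RNA did not pass (0.16 ± 0.09), and enrichment fell by 0.48 ± 0.17. Lbr, the lamin B receptor, which also acts in sterol synthesis, fell by 0.44 ± 0.16 in enrichment. Lemd3 (chr10:120923411-120979396), an inner membrane protein that restrains Smad signalling, counted 225 and 320.2 in ES input, 222 and 296 in ES Rpl10a-IP, 381 and 435 in ELA input and 448 and 438 in ELA Rpl10a-IP. It rose in both fractions, by 0.60 ± 0.15 and 0.79 ± 0.11, with no call in enrichment (0.19 ± 0.21). Sun1 (chr5:139200564-139249839), which links the lamina to the cytoskeleton through nesprins, counted 786 and 820.0 in ES input, 929 and 1012 in ES Rpl10a-IP, 517 and 488 in ELA input and 1013 and 926 in ELA Rpl10a-IP. Total RNA fell by 0.68 ± 0.11 while bound RNA gave -0.0021 ± 0.10, and enrichment rose by 0.67 ± 0.16 (adjusted p = 6.5e-04). In the corrected values the fall of Lbr in enrichment did not pass (-0.29), nor did its fall in bound RNA, from -0.20 ± 0.09 to -0.06, and Lbr was called higher in total RNA (0.23). Bound RNA was called higher for Tmpo (0.22) and lower for Sun1 (-0.23).

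**Figure D3:**
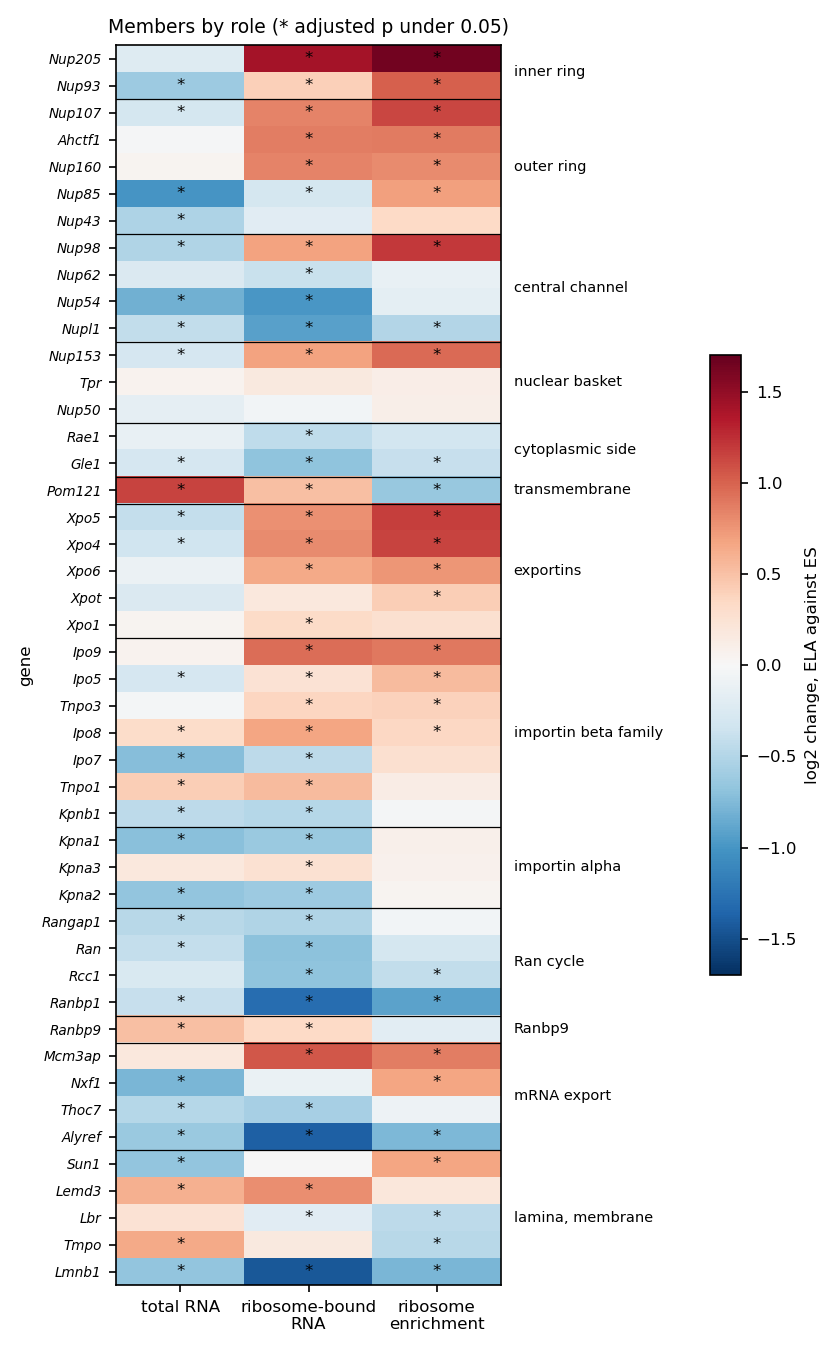
Colour gives the log2 change from ES to ELA of each member (rows, grouped by role) in total RNA, ribosome-bound RNA and ribosome enrichment (columns); a star marks an adjusted p under 0.05. Enrichment rose in 6 of the 7 ring genes and 4 of the 5 exportins, while the 4 Ran cycle genes fell in bound RNA, all as measured, before the length and GC correction.

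Taken by fraction, total RNA fell in 24 members and rose in 6, where 35.8% and 34.5% of all genes passed. The 6 that rose were Pom121, Tmpo, Lemd3, Ranbp9, Tnpo1 and Ipo8. Bound RNA rose in 21 members and fell in 18, against 41.1% and 42.3% of all genes. Lower total RNA with higher bound RNA was found in 7 members, namely Ipo5, Nup93, Nup98, Nup107, Nup153, Xpo4 and Xpo5, a pattern that 4.49% of all genes showed. No member showed the opposite pattern, which 4.84% of all genes did. Both fractions fell in 14 members and rose in 5, and 3, Nup50, Tpr and Xpot, passed in neither, where 26.2%, 24.8% and 6.71% of all genes did so. In the corrected values total RNA fell in 26 members and rose in 6 (37.2% and 31.6% of all genes), and bound RNA rose in 20 and fell in 18 (38.5% and 38.6%). Lower total with higher bound RNA then held for 8 members (6.04% of all genes), which were Nup93, Nup98, Nup153, Xpo4 and Xpo5 as before, with Nup205, Nxf1 and Xpo6 and without Ipo5 and Nup107. Both fractions then fell in 14 members, with Nup50, Tpr, Xpot, Tnpo1, Xpo1 and Sun1 among them, and rose in 3, where 23.8% and 21.7% of all genes did.

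**Figure D4:**
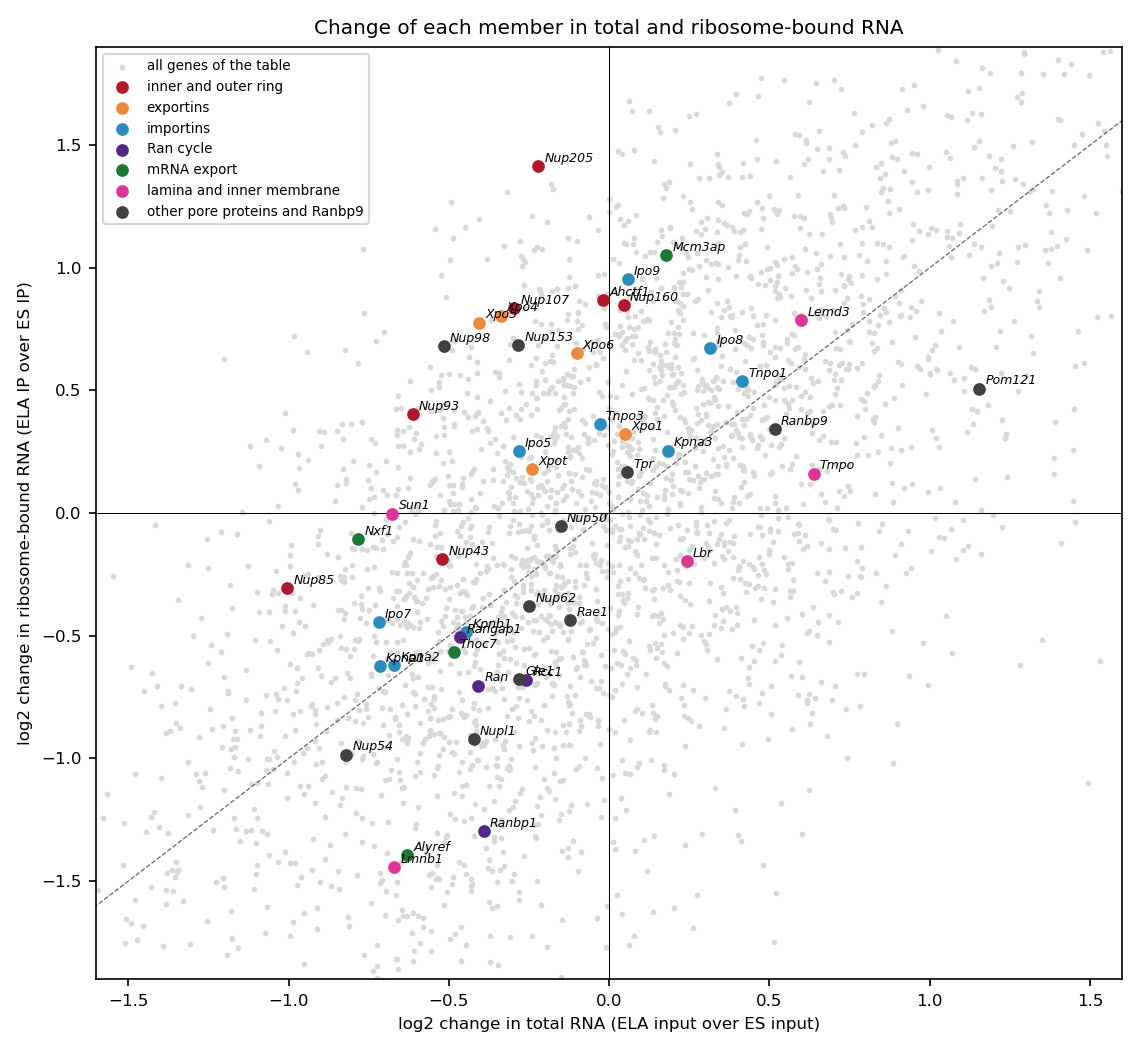
Log2 change from ES to ELA in total RNA (horizontal) and in ribosome-bound RNA (vertical); coloured points are the 46 members by role and grey points the other genes, with those beyond the axes not drawn. Members above the dashed line of equal change, such as Nup205 (-0.22 and 1.41), gained in enrichment, and those below it, such as Pom121 (1.15 and 0.51), lost.

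Transcript length moved with these values. Across the 3113 genes with a GENCODE vM1 length, the correlation across genes of log2 length with the change in enrichment was 0.48, with bound RNA 0.58 and with total RNA 0.32. Across the 46 members it was 0.41, 0.63 and 0.44. These genes share the same libraries. Enrichment rose in 10 of 16 members with transcripts of 5 kb or more, in 6 of 16 of 3 to 5 kb and in 3 of 14 under 3 kb, where 48.8%, 28.5% and 12.7% of all genes in those classes rose. Falls came in 1, 4 and 4 members, against 10.3%, 25.9% and 43.4% of all genes. After the length and GC correction, enrichment rose in 20 members and fell in 7, where 26.1% and 23.9% of the 3113 genes passed, and the members' median was 0.27. Of the 28 members called before, 22 were called after it in the same direction. Nup205 gave 1.28, Nup107 1.20, Nup93 1.09, Xpo5 1.06, Xpo4 1.01, Nup98 0.93, Lmnb1 -0.80 and Alyref -0.72. The 6 calls lost were those of Ipo8, Lbr, Nupl1, Rcc1, Tnpo3 and Xpot, and 5 were gained. Corrected, enrichment in ES was higher in 20 members and lower in 2 (20.2% and 17.5% of all genes), and in ELA higher in 27 and lower in 9 (37.2% and 35.0%). In ES, Ipo9, Nup43, Nup85 and Nup98 then passed as enriched, Nup153 no longer did, and Lmnb1, Ranbp1 and Rcc1 no longer passed as depleted. In ELA, Rae1 and Thoc7 then passed as enriched and Kpnb1 as depleted, Tpr no longer passed as enriched, and Lbr, Nup62 and Ran no longer passed as depleted. Among the 33 members called in ELA in the same direction before and after, 6 had values smaller by over 1.5 times. These were Ahctf1 (0.82), Ipo9 (0.70), Mcm3ap (0.47), Ranbp1 (-0.45), Tnpo1 (0.23) and Xpot (0.47), and 2 were larger by as much (Kpna2 0.59 and Nup43 1.20). In ES, 2 of 18 were smaller by as much (Pom121 -0.29 and Tnpo1 0.30) and 1 larger (Rae1 0.52). In bound RNA, Nup107 gave 1.09, Lmnb1 -1.32 and Alyref -1.25. Of the 28 members called there in the same direction before and after, 16 had values smaller by over 1.5 times, among them Nup205 (0.82), Xpo4 (0.51), Nup160 (0.45), Ipo9 (0.33), Ipo8 (0.35), Ipo7 (-0.21) and Lemd3 (0.52), and 3 had larger ones (Kpnb1, Nup93 and Ranbp9). In total RNA, 3 of 22 were smaller by as much (Kpna2, Nup93 and Nxf1) and 2 larger (Kpna1 and Nup153), and in the change in enrichment 5 of 22 were smaller and none larger. Between the calls as measured and corrected, 3 members turned from 1 direction to the other in bound RNA (Tnpo1, Xpo1 and Thoc7) and 2 in total RNA (Tnpo1 and Ranbp1), and none did in the change in enrichment. The part of transcript length in these changes was not tested.

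**Figure D5:**
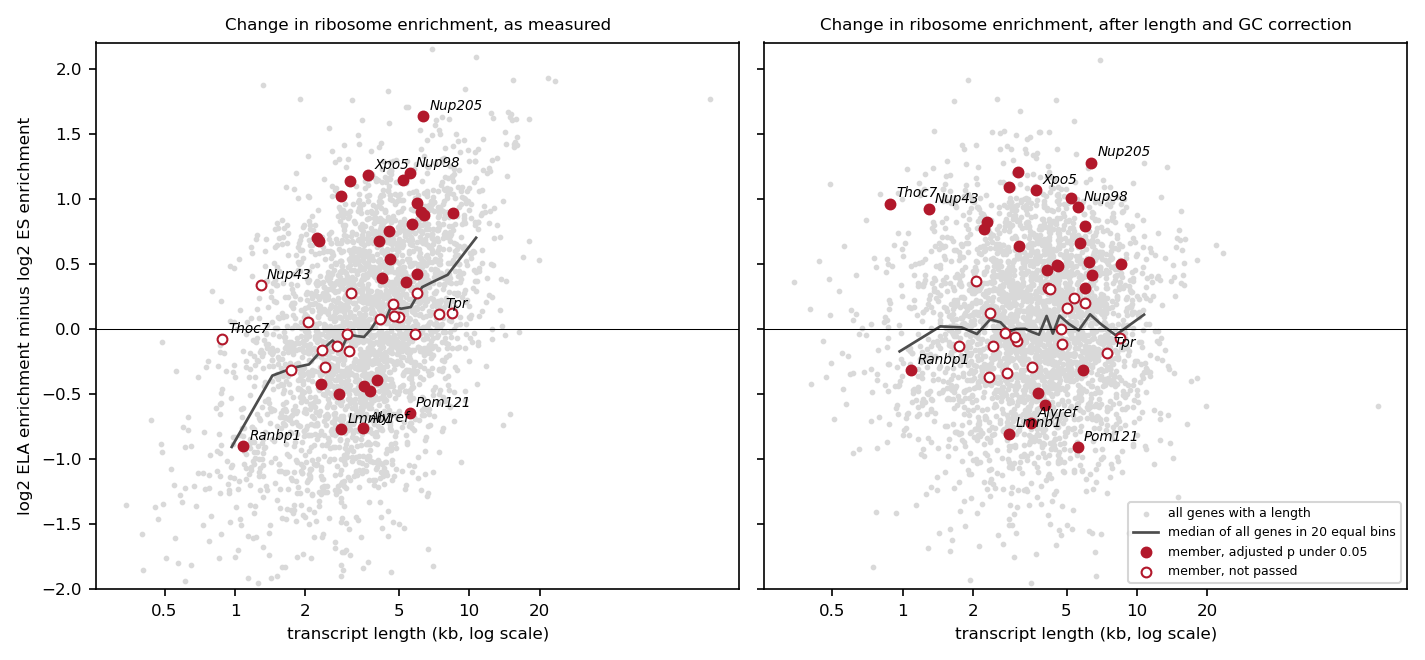
Change in ribosome enrichment (log2, vertical) against transcript length (kb, log axis) before (left) and after (right) the length and GC correction, with members in red, filled where the adjusted p was under 0.05, over all genes in grey (those beyond the axes not drawn) and their median in 20 equal bins as a line. The line climbs with length on the left and is near flat on the right, where Nup205 stays at 1.28 and Ranbp1 sits at -0.32.

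Levels per kb of transcript spanned a wide range among members. In ES input, Ranbp1 stood at 3975 normalised counts per kb, Kpnb1 at 3023, Kpna2 at 2792, Ran at 2321 and Lmnb1 at 1992, the 5 highest. Lemd3 (57.4), Pom121 (57.6) and Mcm3ap (91.7) were the 3 lowest. In ELA input, Ranbp1 (3025), Kpnb1 (2223), Kpna2 (1770) and Ran (1749) again came first, in the same order. The order was another in ELA Rpl10a-IP, which differs from ES input in both stage and fraction. Ipo5 was first at 2987 counts per kb in ELA Rpl10a-IP, then Xpo1 at 2252, Kpna2 at 2126 and Kpnb1 at 2118, with Ranbp1 at 1307. Among ring genes, Nup107 stood there at 1085, Nup205 at 1078 and Ahctf1 at 955 counts per kb.

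By RefSeq spans, 11 members overlap another protein-coding gene, and since the strand used in counting is not given in the sources used here, their values are uncertain. These are Ahctf1, Mcm3ap, Nup43, Nup62, Nup98, Pom121, Ranbp9, Thoc7, Tnpo1, Tnpo3 and Tpr. Kpna2 has 1 pseudogene named after it, and Ran and Ranbp1 are known to have processed copies, so reads of these genes could be split or shared.

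Other genes of the same pathways were counted from lists of names drawn up by function, with earlier results of these data known. The values of these lists and of the marker genes that follow are as measured, without the length and GC correction. They cannot be set directly against the corrected values of members. Of 45 listed genes for the pore, RNA carriers and mRNA export outside the name pattern, 18 were in the table. Enrichment rose in 3 of them and fell in 10 (28.4% and 27.7% of all genes), with a median of -0.51, and bound RNA rose in 2 and fell in 14 (41.1% and 42.3% of all genes). Srsf1, a splicing factor that shuttles with mRNA, fell by 1.20 ± 0.15, and Aaas, the pore protein aladin, rose by 1.20 ± 0.19, the largest changes in enrichment. Of 35 other nuclear envelope genes, 8 were in the table, with 2 rises and 2 falls in enrichment. Syne2, which encodes the nesprin-2 that binds Sun proteins, rose by 1.93 ± 0.17 in enrichment and 1.85 in total RNA.

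All 6 naive pluripotency genes in the table (Nanog, Klf2, Klf4, Tfcp2l1, Fgf4 and Tdgf1, of 13 listed) fell in total and in bound RNA, and their summed level went from 19418 to 19867 in ES input to 2162 to 2284 in ELA input. Of the general pluripotency genes, Pou5f1 fell in total RNA by 1.18 and Sall4 rose by 0.25. Dnmt3a and Dnmt3b, the DNA methyltransferases that rise in primed epiblast, rose in both fractions, and Nes, a neural progenitor gene, rose in both as well. None of the 8 endoderm, 6 mesoderm or 6 trophectoderm markers is among the 3160 genes, so these cell types could not be checked here.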

How the data were processed

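Per the labels and the study's methods, RNA was depleted of ribosomal RNA, libraries were made with the ScriptSeq v2 kit, and the authors mapped reads to mm10 with TopHat2, counted them with HTSeq and divided them by DESeq2 size factors. The values deposited for each library are thus a signal, namely reads per gene over a scale factor, and dividing by the smallest difference between values in a library gave whole numbers within 1e-06 for all genes, taken here as reads. Per the study's methods, genes with few counts or a wide spread of counts were removed. In the table every gene had a mean normalised input of at least 50.02 in 1 stage, and the SD of the 2 ratios of Rpl10a-IP to input was at most 0.1995 (ES) and 0.1998 (ELA) of their mean. The 26 other columns hold means, SDs, ratios and fold changes and were not used, and 0 columns belonged to other samples.

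Reads were rescaled over the 8 libraries by trimmed means of M values, and log2(normalised count + 1) was modelled in limma 3.58.1 under R 4.3.3, with 1 coefficient per group, a trended prior and p-values adjusted over all 3160 genes by Benjamini-Hochberg. ES enrichment and the change in bound RNA left out ELA input replicate 1, as the study's methods did for low complexity and poor correlation, and used 7 libraries. ELA enrichment, the change in total RNA and the interaction need that group and used all 8. Count models, planned as alternatives, were not run. The script was tested on simulated data. Transcript lengths came from GENCODE vM1 and coordinates from RefSeq (GRCm38.p6). Members and lists were chosen with earlier results of these data known. Each member was described under its role, with values per library for up to 6 rises and 6 falls per comparison among called members with more than 3 reads in every library. Counting-error weights, a block per lysate and a set of only genes with a length were alternatives added after seeing the data. Control immunoprecipitations were not analysed here.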

Additional observations from a re-analysis of the deposited data

Results flagged for a closer look

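The change in ribosome enrichment between ELA and ES passed the interaction test (limma, adjusted p under 0.05, 8 libraries) in 28 members. Of all 3160 genes, 1775 passed it, 28.4% as higher and 27.7% as lower. Each of the 28 members is given here because its enrichment differs between the stages, as measured, before the length and GC correction. On the log2 scale it was higher in ELA by 1.64 for Nup205, 1.20 for Nup98, 1.18 for Xpo5, 1.14 for Xpo4, 1.13 for Nup107, 1.02 for Nup93, 0.97 for Nup153, 0.90 for Ipo9, 0.89 for Ahctf1, 0.88 for Mcm3ap, 0.80 for Nup160, 0.75 for Xpo6, 0.70 for Nup85, 0.68 for Nxf1, 0.67 for Sun1, 0.53 for Ipo5, 0.42 for Xpot, 0.39 for Tnpo3 and 0.36 for Ipo8. It was lower in ELA for 9 members, at -0.90 for Ranbp1, -0.77 for Lmnb1, -0.76 for Alyref, -0.65 for Pom121, -0.50 for Nupl1, -0.48 for Tmpo, -0.44 for Lbr, -0.42 for Rcc1 and -0.40 for Gle1. Of the 19 rises, 16 kept their call in each of 20 other settings and left-out libraries, and Ipo8, Tnpo3 and Xpot did not. Of the 9 falls, Ranbp1, Lmnb1 and Alyref kept it in each of them, and the other 6 lost it in at least 1. Groups of 2 libraries are too small for a test of single libraries that stand apart.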

How the results depend on the processing

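Other scalings (total reads, median of ratios and, between stages, the deposited size factors), pseudocounts of 0.1 and 10, a mean normalised count of at least 200 and counting-error weights left each count of called members within 1.5 times. Only the enrichment in ES and the falls in enrichment moved further. With all 8 libraries, 9 members were enriched and 3 depleted in ES, against 17 and 5. The length and GC correction left 2 depleted in ES, or 3 with the replicate block added. Leaving out 1 library at a time gave 9 to 17 enriched members in ES (9 without ES Rpl10a-IP replicate 2 and 11 without ES input replicate 1) and 1 to 5 depleted ones (1 without ES input replicate 1 or without ES Rpl10a-IP replicate 1). The change in enrichment then passed as higher in 16 to 19 members and as lower in 4 to 9 (4 without ES Rpl10a-IP replicate 2 and 5 without ES input replicate 2). A library left alone in its group is assumed to vary like those of the other groups. With the methods' ratio of means without ELA input replicate 1, which has no test, 8 members rose above 1 on the log2 scale in enrichment, against 6, and none fell below -1. The length and GC correction turned the sign of single members, with the same value with or without the replicate block. In bound RNA it gave 0.0234 for Kpna2, 0.92 for Nup43, 0.0626 for Nup85, 0.36 for Nxf1, -0.13 for Pom121, 0.11 for Rae1, 0.87 for Thoc7, -0.31 for Tnpo1, -0.52 for Tpr, -0.18 for Xpo1 and -0.27 for Xpot. In total RNA it gave 0.0046 for Nup43, 0.23 for Ranbp1, -0.24 for Tnpo1, -0.33 for Tpr and -0.49 for Xpo1, and -0.21 for Nup160 and 0.24 for Rae1, which passed only with the replicate block. In ELA enrichment it gave 0.0546 for Nup62, 1.13 for Thoc7 and -0.15 for Tpr, and in the change in enrichment 0.96 for Thoc7. Only members with a call in the measured or the corrected values are listed here. Uncalled values turned sign as well, such as the change of Nup54 in enrichment (-0.16 to 0.12). The cause was not tested. Replicate numbers are shared between groups. Input was drawn from the same lysates as the Rpl10a-IP, but the labels do not say that an equal number marks 1 lysate. Deviations of same-numbered libraries correlated at 0.17 (ES input with ES Rpl10a-IP), 0.50 (ELA), 0.15 (inputs) and -0.02 (Rpl10a-IP) over 3160 genes. The replicate block alone left the change in enrichment at 19 higher and 9 lower members, and over all genes 1894 passed, against 1775. With a block per lysate, equal numbers of a stage taken as 1 lysate, the counts of members in the 3 comparisons of enrichment stayed the same except the 27 enriched in ELA, against 26, where Kpna1 then passed. Count models (edgeR and DESeq2), planned as alternatives on the recovered reads, were not run, so how the calls depend on the test is not known. The deposited size factors were set within each fraction, so they give no alternative for the enrichment within a stage. The depth of ELA input limits every comparison that uses it.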
